A study of Mus musculus with 39 samples.

Results

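Gene expression in mature mouse rods was set directly against that in rod precursors, with the 4 arrays of wild-type (wt) cells at 4 weeks of age compared with the 4 arrays of wild-type cells at embryonic day 16 (E16) across all genes. These 8 arrays, taken by genotype and age from the labels, were 8 of 39 in the series, which also holds wild-type cells at postnatal days 2, 6 and 10 (P2, P6 and P10) and Nrl-ko cells, which lack the rod-specifying factor Nrl, at all 5 stages. All mice carried a green fluorescent protein (GFP) driven by the Nrl promoter, GFP-positive photoreceptors were isolated by fluorescence-activated sorting, and about 50 ng of total RNA was amplified by the NuGEN protocol and hybridised to Affymetrix mouse arrays. What was sorted is therefore every cell that held GFP, whether or not it was a rod, and neither the animals pooled for each array nor their independence is given in the labels. The standard errors and p-values of this comparison of genes do not rest on these 8 arrays alone. They measure the spread between arrays of the same stage, pooled over the wild-type arrays of all 5 stages. That spread may be technical.

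Rods arise from proliferating retinal progenitors, which leave the cell cycle, switch on Otx2, Crx and then Nrl, and only after birth build the outer segment, a modified cilium packed with discs of photopigment. In the mature cell, light activates the photopigment, transducin and then the phosphodiesterase PDE6, and the fall in cyclic GMP closes the cyclic nucleotide-gated channel. Arrestin, the guanylate cyclase activating proteins and the RGS9 complex shut the response off, and recoverin regulates the shut-off. Rods also carry a ribbon synapse and are known for strong aerobic glycolysis.

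Signals are log2 values, differences are wt 4 weeks minus wt E16 on that scale with their standard error (SE), and a gene is said to have risen or fallen where limma's Benjamini-Hochberg adjusted p over 18193 genes was under 0.05. Correlation between arrays of a group was 0.956 to 0.990 at 4 weeks and 0.967 to 0.992 at E16. The 3' minus 5' signal of the Actb control, a measure of RNA and amplification quality, was 1.37 ± 0.25 at 4 weeks against 2.18 ± 0.14 at E16 (SD, n = 4 each), a difference of -0.81 (exact two-sided permutation p = 0.0286, the smallest that 4 against 4 arrays allow). The Gapdh control differed by -0.63 in the same direction, and the part of RNA quality in the results below was not tested. At 4 weeks the rod genes Gnat1, Sag, Pde6b and Nrl lay between 12.22 and 13.53 on all 4 arrays. At E16 the rod genes Sag and Pde6b had absent detection calls, while Gnat1 had a mean of 7.54 and Nrl lay at 8.76 to 10.61. Of 19 measured rod phototransduction genes 7 had a present call at E16.

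Of 18193 genes, 3076 (16.9%) differed between the ends of the course. Falls outnumbered rises, with 1098 genes (6.04%) higher and 1978 (10.9%) lower at 4 weeks, and at a change of 2-fold or more the counts were 592 (3.25%) and 1124 (6.18%), together 9.43% of genes. The 4 arrays at 4 weeks did not overlap the 4 at E16 for 4723 genes (26%). The median difference over all genes was 0.05 and the median SE 0.17. In bulk sorted samples a change in RNA per cell and a change in the share of cells that hold it cannot be told apart.

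**Figure D1:**
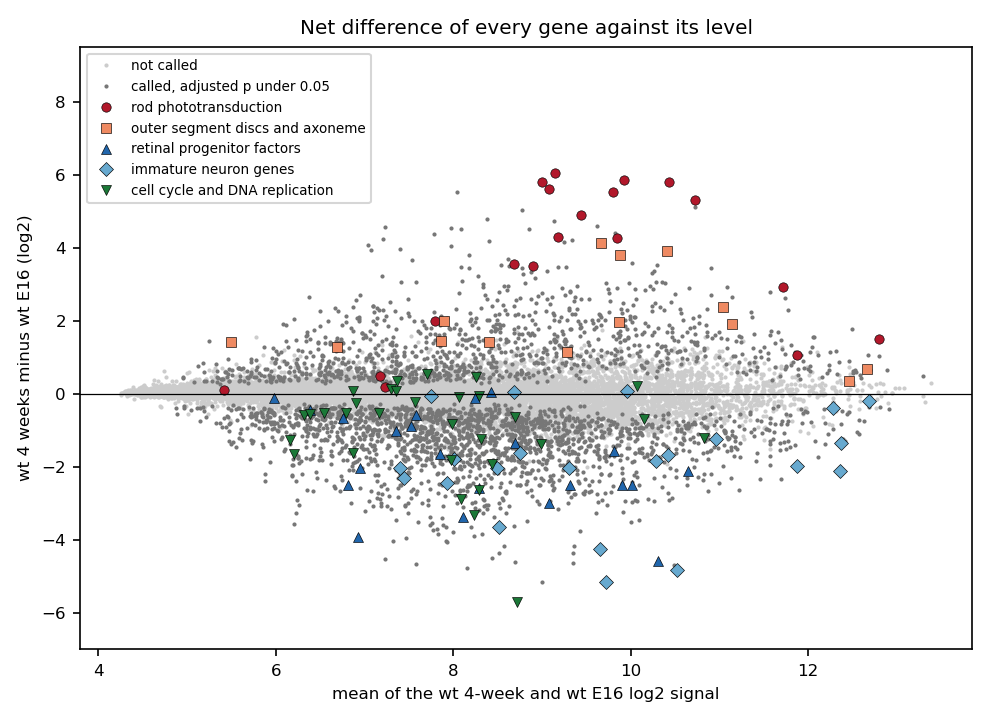
Each point is 1 gene, with the mean of its wt 4-week and wt E16 log2 signals on the x axis and wt 4 weeks minus wt E16 (log2) on the y axis, and coloured symbols are members of 5 gene lists. Rod phototransduction genes reach 6.06 above 0, and the cell cycle gene Rrm2 lies at -5.70.

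Rod phototransduction genes rose together. Of 19 measured genes 17 rose and 0 fell, with a median difference of 4.26 against 0.05 over all genes. Guca1a, a guanylate cyclase activating protein that restores cyclic GMP after light, had the largest called rise among genes whose arrays did not overlap. Unnamed clones and predicted gene models were passed over in this ranking. The signal of Guca1a was 11.89, 12.04, 12.29 and 12.48 on the 4-week arrays against 5.82, 6.13, 6.25 and 6.28 on the E16 arrays. The groups lay far apart and the E16 call was absent, so the difference of 6.06 ± 0.38 (SE, limma adjusted p = 4.1e-09) is a fold of at least 66.5. Guca1b, its relative, rose by 5.52 ± 0.43 (limma adjusted p = 5.56e-08), while another present probe set of Guca1b differed by 0.97.

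Members of the transduction cascade rose by different amounts. Gnat1, the rod transducin alpha subunit, gave 13.43, 13.31, 13.34 and 13.24 at 4 weeks and 7.4, 7.52, 7.5 and 7.72 at E16. These arrays were tight in both groups, and the difference of 5.79 ± 0.39 (limma adjusted p = 9.39e-09) is a 55.4-fold rise. Pde6b, the beta subunit of the rod phosphodiesterase, gave 12.95, 12.86, 12.72 and 12.92 at 4 weeks against 6.55, 6.36, 6.83 and 8.26 at E16, a rise of 5.86 ± 0.35 (limma adjusted p = 3.05e-09). E16 array 4 stood above the others here, and so it did for Sag, rod arrestin, at 9.46 against 7.48 to 7.79 on the other E16 arrays. Sag lay at 13.29 to 13.53 at 4 weeks and rose by 5.32 ± 0.48. The same E16 array was also highest for Rcvrn (7.16 against 5.82 to 6.25) and Nrl (10.61 against 8.76 to 9.80).

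Channel, exchanger and shut-off genes followed. Slc24a1, the rod sodium-calcium-potassium exchanger, rose by 5.8 ± 0.54 and Cnga1, the channel's alpha subunit, by 4.28 ± 0.36 (limma adjusted p = 3.89e-07 and 1.29e-07). Rcvrn, recoverin, a regulator of the shut-off, rose by 5.62 ± 0.33 and Rgs9bp, the anchor of the RGS9 complex, by 4.89 ± 0.41. The other rises in this list ran from 0.48 for Grk1, a photoreceptor kinase of the shut-off, to 4.26 for Pde6g, the inhibitory subunit of the phosphodiesterase. Gnb1, Gngt1 and Pdc, the transducin beta and gamma subunits and their partner phosducin, rose by 1.5, 2.92 and 1.05. The cyclase gene Gucy2e (0.09) and Rgs9 (0.18) did not pass the test.

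Promoters are shown of 2 phototransduction genes, those with the largest rises among genes with a promoter window that holds TAATCC in the 250 bases upstream of the start. TAATCC gives the letters of a CRX-type homeodomain motif, and it or its reverse complement is in capitals (RefSeq, GRCm38.p6, 5′ to 3′ on the gene's strand). Gnat1 and Rcvrn, which rose more than Sag, had no window and were not searched. Guca1a is on the minus strand at chr17:47400607-47400856 with the motif starting 57 bases before the start, and Sag is on the plus strand at chr1:87803430-87803679 with the motif starting 87 bases before it.
Guca1a: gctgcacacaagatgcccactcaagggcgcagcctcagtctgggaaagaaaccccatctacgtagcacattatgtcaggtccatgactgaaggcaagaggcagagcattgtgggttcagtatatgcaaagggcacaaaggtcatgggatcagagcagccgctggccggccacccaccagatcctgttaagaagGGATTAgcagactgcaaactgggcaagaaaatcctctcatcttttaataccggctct
Sag: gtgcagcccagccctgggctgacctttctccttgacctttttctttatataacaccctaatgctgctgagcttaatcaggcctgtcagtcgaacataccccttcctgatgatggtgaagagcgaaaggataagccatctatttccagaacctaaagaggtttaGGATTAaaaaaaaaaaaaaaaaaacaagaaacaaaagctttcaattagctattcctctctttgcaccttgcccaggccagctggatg
Over 300-base windows, 250 before to 50 after the start, TAATCC on either strand was in 10.7% of 477 genes that rose 2-fold or more, in 3.73% of 911 that fell 2-fold or more and in 6.03% of all 14367 genes with a window. Among rod phototransduction and outer segment genes it was in 9 of 24 windows. TGCTGA, the core of the MAF-type element that NRL recognises, was in 15.3%, 12.5% and 17.2% of the same groups of genes that rose, fell and had a window. These are matches of letters, described without a test.

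**Figure D2:**
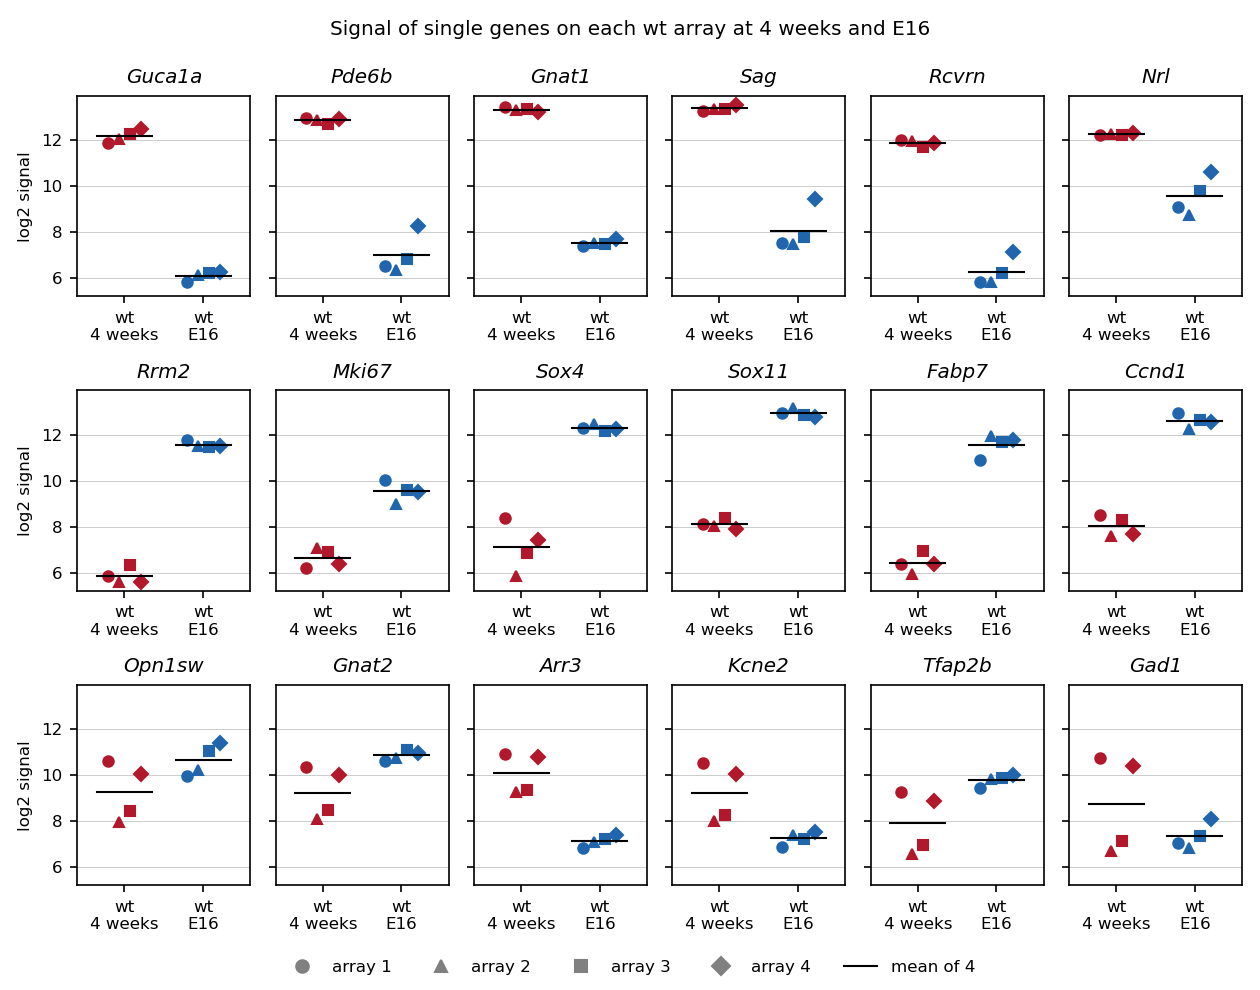
Each point is the log2 signal on 1 array, with wt 4 weeks on the left and wt E16 on the right of each panel, symbols marking the 4 arrays of a group and a line their mean. The top row shows genes that rose, the middle row genes that fell, and the bottom row cone and amacrine genes, where 4-week arrays 1 and 4 lie above arrays 2 and 3 for Opn1sw, Gnat2, Arr3, Kcne2, Tfap2b and Gad1.

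Outer segment genes rose with them. Of 14 measured genes of the discs and axoneme 13 rose and 0 fell, with a median of 1.67. Reep6, an endoplasmic reticulum protein needed for rod membrane traffic, gave 12.38, 11.71, 11.33 and 11.49 at 4 weeks against 7.81, 7.05, 7.78 and 7.76 at E16. No arrays overlapped, and it rose by 4.13 ± 0.32 (limma adjusted p = 5.33e-08). Rp1, a microtubule protein of the axoneme, rose by 3.91 ± 0.32, its relative Rp1l1 by 2.38 ± 0.27, and the disc rim protein Rom1 by 3.81 ± 0.53. Prph2, the partner of Rom1 at the rim, was called at 1.29 ± 0.36 (limma adjusted p = 0.0164), but its probe set had a present call in no assigned wt column. It stood at 8.69 on 4-week array 2, with 6.79 to 6.98 on the other 3, against 5.93 to 6.25 at E16, and without array 2 the difference was 0.83 (limma adjusted p = 0.0467). Cdhr1, a cadherin of the outer segment base, was already at 12.16 to 12.4 at E16 and lay at 12.5 to 12.84 at 4 weeks. These arrays did not overlap, but its 0.36 was not called.

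Of 8 visual cycle genes 4 rose (50.0%, against 6.04% of all genes) and 0 fell. Rdh12, a retinol dehydrogenase of the inner segment, rose by 4.73 ± 0.40, Dhrs3, another retinal reductase, by 4.19 ± 0.39 and at least 18.3-fold, and Abca4, the disc membrane flippase for retinoids, by 3.03 ± 0.28. Rdh14 rose by 1.24 ± 0.29. Rbp3, the secreted retinoid carrier, was already at 11.89 to 12.59 on the E16 arrays, and its difference of 0.29 was not called.

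Of 15 photoreceptor transcription factors 6 rose (40.0%, against 6.04% of all genes) and 2 fell (13.3%, near the 10.9% of all genes), with a median of 0.48. Nrl gave 12.23, 12.28, 12.22 and 12.33 at 4 weeks against 9.08, 8.76, 9.80 and 10.61 at E16, with the spread at E16 (SD 0.82) far larger than at 4 weeks (SD 0.05), and rose by 2.70 ± 0.37 (limma adjusted p = 3.04e-05). Crx, already at 11.40 to 11.75 at E16, stood at 12.05 to 12.17 at 4 weeks, and the 0.48 ± 0.21 was not called (limma adjusted p = 0.136). Samd7, a Polycomb-associated silencer of non-rod genes, rose by 2.60 ± 0.39, with E16 arrays spread from 7.47 to 10.23, and Mef2c by 2.48 ± 0.43. Prdm1, the factor that steers precursors away from the bipolar fate, gave 8.76, 8.61, 8.70 and 8.93 at 4 weeks against 11.59, 11.59, 11.73 and 11.61 at E16. It fell by 2.88 ± 0.15 (limma adjusted p = 7.17e-10). Otx2 lay at 11.25 to 11.78 at 4 weeks against 12.4 to 12.7 at E16. These arrays did not overlap, but its -0.89 was not called, which does not show that Otx2 was unchanged. Neurod1 (-0.07) was not called either, and Nr2e3 was not analysed here.

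**Figure D3:**
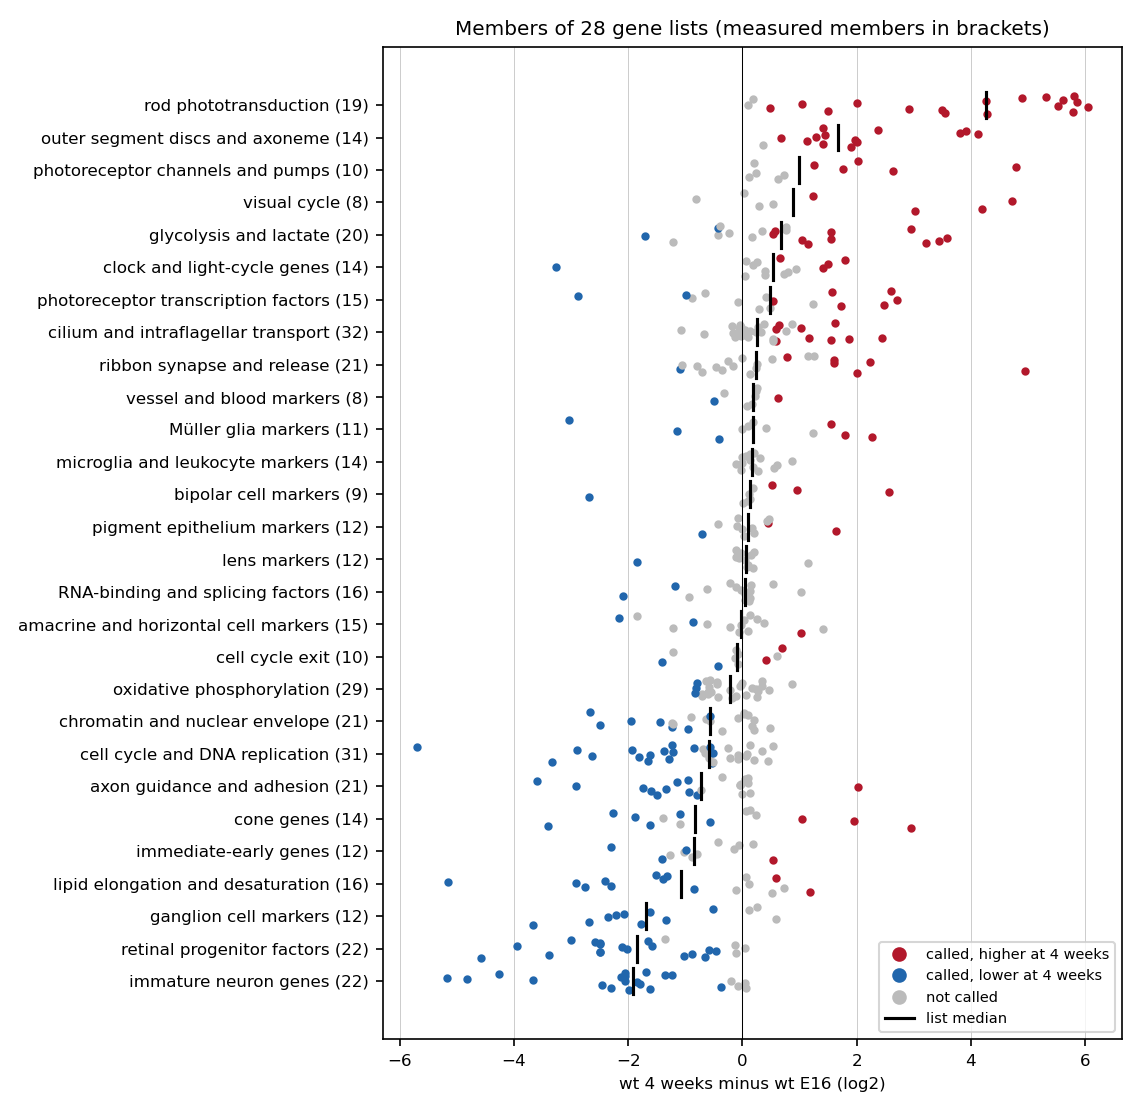
Each row is 1 gene list and each point 1 measured member, placed by wt 4 weeks minus wt E16 (log2) and coloured by its call, with a black bar at the list median. Medians run from 4.26 for rod phototransduction to -1.92 for immature neuron genes.

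Cone genes gave mixed results, and the 4-week arrays disagreed on them. Of 14 measured, 3 rose (21.4%, against 6.04% of all genes) and 6 fell (42.9%, against 10.9%), with a median of -0.82. Arr3, cone arrestin, gave 10.92, 9.26, 9.37 and 10.80 at 4 weeks against 6.86, 7.08, 7.23 and 7.39 at E16, a rise of 2.95 ± 0.37 (limma adjusted p = 1.33e-05). Opn1sw, the S-opsin, gave 10.64, 7.98, 8.43 and 10.06 at 4 weeks against 9.97, 10.24, 11.04 and 11.41 at E16. The groups overlapped, with 4-week arrays 1 and 4 high, and the -1.39 ± 0.66 was not called (limma adjusted p = 0.185). Gnat2, cone transducin, gave 10.36, 8.10, 8.51 and 9.99 at 4 weeks against 10.61 to 11.11 at E16 and fell by 1.62 ± 0.44. Cngb3, the cone channel's beta subunit, did not share the split: it lay at 5.96 to 6.5 on all 4 arrays at 4 weeks against 9.24 to 9.81 at E16 and fell by 3.41 ± 0.28 (limma adjusted p = 8.26e-08). Sall3, a factor of S-cone development, fell by 2.26 ± 0.14.

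The 4-week arrays 1 and 4 were the higher ones for cone genes and for genes of other retinal neurons. The mean over the 14 cone genes was 8.75 and 8.47 on them and 7.57 and 7.69 on arrays 2 and 3, against 8.45 to 8.78 at E16. The mean over 15 amacrine and horizontal cell markers was 7.74 and 7.63 on arrays 1 and 4 and 6.81 and 6.87 on arrays 2 and 3, against 7.39 to 7.70 at E16. Of these markers 1 rose (6.67%) and 2 fell (13.3%), near the 6.04% and 10.9% of all genes. Gad1, which makes the amacrine transmitter GABA and was picked after its values were seen, gave 10.76 and 10.39 on arrays 1 and 4, with 6.72 and 7.16 on arrays 2 and 3, against 6.86 to 8.09 at E16. Tfap2b, an amacrine factor, gave 9.27 and 8.88 on arrays 1 and 4, with 6.59 and 6.99 on arrays 2 and 3, against 9.44 or more at E16, and its difference of -1.85 was not called (limma adjusted p = 0.055). The rod phototransduction mean did not show the split: it lay at 11.15 to 11.25 on all 4.

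Without 4-week arrays 1 and 4, an alternative chosen after seeing the data, 2587 of 18193 genes were called, 732 up and 1855 down. Opn1sw was then called at -2.47 (limma adjusted p = 0.027), Tfap2b at -2.99 (0.00491), and Kcne2, a potassium channel subunit in the cone list that otherwise rose by 1.95, was not (0.87, limma adjusted p = 0.16). Of the rod phototransduction genes 16 of 19 rose, and 18 of 22 immature neuron genes fell. Counts of other lists moved: cone genes gave 1 up and 8 down, cilium genes 4 up and 1 down, and glycolysis genes 6 up and 5 down. Cell cycle genes gave 1 up and 11 down, and ribbon genes 5 up and 3 down. Beside 732 up and 1855 down of all 18193 genes, the small counts among these are not read as results of a list. Xist, the transcript of the inactive X, stood at 6.37 on 4-week array 1 and at 11.04 to 11.44 on the other 3, so this array also differed from the rest in a sex-linked gene, and the difference between the groups (-0.56) was not called. The sex of the animals is not in the labels.

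Markers of other cells that a retina sort could carry lay at different levels. None of 14 microglia and leukocyte markers was called (0 up, 0 down), and their mean was 6.41 to 6.54 at 4 weeks against 6.11 to 6.35 at E16. The means of 8 vessel and blood markers were 6.19 to 6.29 at 4 weeks against 6.12 to 6.19 at E16, with 1 up and 1 down (12.5% each). Those of 12 pigment epithelium markers were 6.52 to 6.65 at 4 weeks against 6.35 to 6.46 at E16, with 2 up (16.7%) and 1 down (8.33%). Over all genes 6.04% rose and 10.9% fell, so the shares that fell in both lists were near that of all genes. The mean of 11 Müller glia markers was 8.27 to 8.86 at 4 weeks against 8.11 to 8.38 at E16. Of these 3 rose and 3 fell (27.3% each). Aqp4, the water channel of glial endfeet, rose by 2.27 ± 0.16, whereas Vim, vimentin, which progenitors express too, fell by 3.04 ± 0.50. Among 9 bipolar markers 3 rose (33.3%) and 1 fell (11.1%). The risers included Prkca at 2.56 ± 0.28, and the faller was Lhx4, which photoreceptor precursors also express, at -2.68 ± 0.34. Lens markers gave 0 up and 1 down of 12 (8.33%, near the 10.9% of all genes), with Cryba1 at 5.72 on E16 array 1 and 8.62 to 9.96 on the other 3. The part of such cells in the results was not tested.

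Synaptic genes rose in part. Of 21 genes of the ribbon synapse and release 6 rose (28.6%, against 6.04% of all genes) and 1 fell (4.76%, against 10.9%), with a median of 0.24. Cplx4, the complexin of photoreceptor ribbons, gave 11.85, 12.08, 11.94 and 11.84 at 4 weeks against 6.94, 6.95, 7.04 and 6.96 at E16. Its groups were tight and far apart, and it rose by 4.95 ± 0.36 (limma adjusted p = 2.07e-08), at least 31.0-fold. Slc17a7, the vesicular glutamate transporter, rose by 2.24 ± 0.29, Cabp4, the calcium sensor of the ribbon channel, by 2.00 ± 0.25 and Stx3, the syntaxin of ribbon terminals, by 1.61 ± 0.13. Syp (-0.01), Snap25 (-0.25) and Rab3a (0.25), which other synapses share, were not called. Dag1, dystroglycan, fell by 1.09.

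Of 10 channels and pumps 5 rose (50.0%, against 6.04% of all genes) and 0 fell. Kcnj14, an inward rectifier potassium channel, gave 10.62, 10.77, 10.88 and 10.87 at 4 weeks against 5.78, 6.16, 6.07 and 5.95 at E16 and rose by 4.79 ± 0.28 (limma adjusted p = 2.44e-09). Cacna1f and Cacna2d4, subunits of the calcium channel at the photoreceptor ribbon, rose by 2.63 ± 0.30 and 1.76 ± 0.25. Of 32 cilium genes 9 rose (28.1%, against 6.04% of all genes) and 0 fell, with a median of 0.26. Bbs7, Bbs5 and Bbs2 of the BBSome, the cargo adaptor of the cilium, rose by 2.45 ± 0.46, 1.87 ± 0.40 and 1.56 ± 0.38. Without 4-week arrays 1 and 4 the list gave 4 up and 1 down, and Bbs2 was not called (1.44, limma adjusted p = 0.0649). Among intraflagellar transport genes proper, Ift20, Ift88 and Ift140 differed by 0.05, 0.14 and -0.03 and were not called.

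Of 20 genes of glycolysis and lactate 10 rose (50.0%, against 6.04% of all genes) and 2 fell, with a median of 0.67. The share that fell was near the 10.9% of all genes. The mean of this list was 10.93 and 10.53 on 4-week arrays 1 and 4 and 10.12 and 10.18 on arrays 2 and 3, and without arrays 1 and 4 the counts were 6 up and 5 down. Hk2, the hexokinase that photoreceptors use, gave 12.10, 11.76, 11.78 and 11.58 at 4 weeks against 8.16, 8.01, 8.32 and 8.38 at E16 and rose by 3.59 ± 0.25 (limma adjusted p = 1.68e-08). Ckmt1, mitochondrial creatine kinase, rose by 3.44 ± 0.39, Aldoc, an aldolase, by 3.22 ± 0.33 and Slc16a1, a lactate transporter, by 2.96 ± 0.39, while Ldhb, a lactate dehydrogenase subunit, fell by 1.70. Of 29 oxidative phosphorylation genes 0 rose and 3 fell, with a median of -0.21, and that share (10.3%) was near the 10.9% of all genes that fell. Those 3 were Cox7a2 (-0.83), Ndufb5 (-0.81) and Sdhb (-0.79), of the respiratory chain, and Sdhb lost its call under 8 alternatives.

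Genes of fatty acid elongation and binding mostly fell, 9 of 16 with 2 rising and a median of -1.08. These were 56.2% and 12.5%, against 10.9% and 6.04% of all genes. Fabp7, a brain-type fatty acid binding protein of progenitors, gave 6.39, 5.96, 6.95 and 6.39 at 4 weeks against 10.90, 11.96, 11.68 and 11.76 at E16. It fell by 5.15 ± 0.37 (limma adjusted p = 2.33e-08), at least 35.5-fold. Its relative Fabp5 fell by 2.91 ± 0.15 and the desaturase Fads1 by 2.40 ± 0.39. Elovl5, an elongase, fell by 2.76 ± 0.58, with 4-week arrays 1 and 4 (9.45 and 8.94) again above arrays 2 and 3 (6.79 and 7.77). Agpat3 and Lpcat1, which remodel phospholipids, rose by 1.19 and 0.59.

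Cell cycle genes fell in part. Of 31 genes of the cell cycle and DNA replication 16 fell and 0 rose, with a median of -0.59. Rrm2, the regulated subunit of ribonucleotide reductase, gave 5.86, 5.62, 6.36 and 5.61 at 4 weeks against 11.79, 11.50, 11.45 and 11.53 at E16. It fell by 5.70 ± 0.48 (limma adjusted p = 1.42e-07), at least 52.1-fold. That was the largest called fall among genes whose arrays did not overlap, with unnamed clones and predicted gene models passed over. Another present probe set of Rrm2 differed by -1.3. Mki67, the proliferation antigen, gave 6.21, 7.07, 6.92 and 6.37 at 4 weeks against 10.03, 9.0, 9.59 and 9.52 at E16 and fell by 2.89 ± 0.37. Birc5, survivin, fell by 3.33 ± 0.36 and Cdt1, a replication licensing factor, by 2.64 ± 0.33. Cep55, which cuts daughter cells apart, and Cks2, a subunit of cyclin-dependent kinases, were outside the list and differed by -4.67 ± 0.62 and -4.5 ± 0.47, both called. Not all members followed: Top2a (0.53), Ccna2 (0.21) and Kif11 (0.08) were not called. Of the 31 genes, 24 had a present call at E16, and 16 lay at or over 7.9 there, the level used for lower bounds. A missing call therefore does not show that a gene stayed expressed in mature rods. The part of low E16 signal in the missing calls was not tested. Of 10 cell cycle exit genes 2 rose and 2 fell, the fallers including Cdkn1c (-1.41 ± 0.13), an inhibitor of the cycle.

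Promoters are shown of 2 cell cycle genes, those with the largest falls among genes with a promoter window that holds CCAAT in its 250 upstream bases. CCAAT is the NF-Y motif common in cell cycle promoters and is in capitals (RefSeq, GRCm38.p6, gene's strand). Rrm2 is on the plus strand at chr12:24708004-24708253, and Mki67 on the minus strand at chr7:135716380-135716629 with 3 matches.
Rrm2: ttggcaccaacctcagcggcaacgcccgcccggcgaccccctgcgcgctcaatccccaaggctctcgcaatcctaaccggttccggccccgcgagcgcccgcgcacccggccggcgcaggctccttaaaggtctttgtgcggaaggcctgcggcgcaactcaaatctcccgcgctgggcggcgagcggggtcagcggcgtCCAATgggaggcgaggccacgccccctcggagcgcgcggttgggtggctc
Mki67: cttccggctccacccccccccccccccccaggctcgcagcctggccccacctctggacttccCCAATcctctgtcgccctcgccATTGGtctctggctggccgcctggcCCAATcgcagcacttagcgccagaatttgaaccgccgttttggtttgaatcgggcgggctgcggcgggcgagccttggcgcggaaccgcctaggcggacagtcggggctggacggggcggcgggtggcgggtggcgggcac
CCAAT on either strand was in 21 of 27 windows of cell cycle genes (77.8%) and in 38.2% of all 14367. It was in 40.3% of genes that fell and in 38.2% of genes that rose 2-fold or more, so among all genes that fell its share was close to the share in all genes. The cell cycle homology letters TTTGAA were in 13 of the 27 cell cycle windows (48.1%) and in 13.3% of all genes. GCGCGAAA, an E2F-type motif, was in 4 of the 27 (14.8%) and in 0.487% of all.

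Progenitor factors fell as a group. The mean of 12 ganglion cell markers was lower as well, at 7.18 to 7.74 at 4 weeks against 8.51 to 9.19 at E16, and the part of such cells in the falls of progenitor and immature neuron genes was not tested. Of 22 progenitor factors 18 fell and 0 rose, with a median of -1.84. Ccnd1, cyclin D1, the G1 cyclin of retinal progenitors, gave 8.53, 7.58, 8.31 and 7.68 at 4 weeks against 12.96, 12.26, 12.64 and 12.54 at E16 and fell by 4.58 ± 0.45 (limma adjusted p = 8.13e-07). Neurog2, a proneural factor, fell by 3.94 ± 0.34, Fgf15, a progenitor growth factor, by 3.38 ± 0.34 and Sox2 by 3.01 ± 0.43. Hes1, the Notch target, differed by -0.11 and was not called, its E16 call being absent. On the E16 arrays Fgf15 ran from 8.97 to 10.72, with E16 array 1 highest.

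Immature neuron genes fell too, 18 of 22 with 0 rising and a median of -1.92. Sox4 gave 8.37, 5.87, 6.88 and 7.42 at 4 weeks against 12.31, 12.46, 12.18 and 12.27 at E16, and fell by 5.17 ± 0.47. Sox11, the related factor of newborn neurons, gave 8.12, 8.05, 8.4 and 7.90 at 4 weeks against 12.94, 13.17, 12.84 and 12.78 and fell by 4.82 ± 0.43 (limma adjusted p = 3.51e-07 for Sox4 and 2.64e-07 for Sox11). Tubb2b and Tubb3, tubulins of growing neurites, fell by 4.26 ± 0.25 and 2.05 ± 0.31, and Nnat, neuronatin, fell by 3.66 ± 0.24. Of 21 axon guidance and adhesion genes 10 fell (47.6%, against 10.9% of all genes) and 1 rose (4.76%, near the 6.04% of all genes). Robo2, a Slit receptor, fell by 3.60 ± 0.30 and Nrp1, a semaphorin receptor, by 2.92 ± 0.25, while Nfasc, neurofascin, rose by 2.03 ± 0.29.

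Large falls outside the lists included those of Cracd, Enc1, Dock11 and Fmnl2. Cracd, an inhibitor of actin capping, fell by 4.79 ± 0.31, Enc1, an actin-binding kelch protein, by 4.63 ± 0.39, Dock11, an activator of Cdc42, by 4.60 ± 0.21 and Fmnl2, a formin, by 4.36 ± 0.35. Cd24a, a surface glycoprotein, fell by 4.70 ± 0.29, F2r, the thrombin receptor, by 4.53 ± 0.64, and St8sia4, which adds polysialic acid, by 4.36 ± 0.33. Rises outside the lists were of Slc22a29, a transporter of the organic anion family (5.53 ± 0.23), Sgk1, a serum-inducible kinase (5.11 ± 0.22), Vtn, vitronectin (5.02 ± 0.48), and Rnf207, a RING finger protein (4.60 ± 0.50). Sgk1 gave 13.05, 13.25, 13.50 and 13.32 at 4 weeks against 7.74, 8.48, 8.15 and 8.29 at E16. No named gene had a second probe set that was present and changed by over 0.5 in the opposite direction, among the 77 of 131 with more than 1, but sizes differed: the 8 probe sets of Sox4 ran from -5.17 to 0.05. Another present probe set gave 1.36 for Rnf207 and 0.16 for St8sia4, and a larger 5.06 for Cabp4, against 2.0 on the one used. The sizes and ranks given therefore rest on the probe set used.

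Chromatin genes fell in part, 7 of 21 (33.3%, against 10.9% of all genes) with 0 rising and a median of -0.57. Uhrf1, which brings the maintenance DNA methyltransferase to replicated DNA, fell by 2.67 ± 0.30, Ezh2, the Polycomb methyltransferase, by 2.50 ± 0.41, and Hmgb3 and Hmgb2, high mobility group proteins, by 1.96 ± 0.24 and 1.44 ± 0.24. Of 16 RNA-binding and splicing factors 2 fell and 0 rose, a share (12.5%) near the 10.9% of all genes, with a median of 0.04. They were Igf2bp3 (-2.10 ± 0.17), an oncofetal mRNA binder, and Srrm4 (-1.18 ± 0.35), a neuronal splicing factor, which lost its call under 5 alternatives. Msi1 (0.04) and Celf2 (0.05), neural RNA binders, were not called. Of 12 ganglion cell markers 9 fell and 0 rose, led by Atoh7 (-3.66 ± 0.18), the factor that makes progenitors competent for that fate, and Ebf3 (-2.69 ± 0.27).

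Of 14 clock and light-cycle genes 4 rose (28.6%, against 6.04% of all genes) and 1 fell (7.14%, against 10.9%). The risers were Per3 (1.79 ± 0.16), Nr1d2 (1.5 ± 0.34), Drd4, a dopamine receptor of photoreceptors (1.41 ± 0.21), and Tef (0.66). Mtnr1a, a melatonin receptor, gave 6.55, 6.95, 6.89 and 6.41 at 4 weeks against 9.86, 9.59, 10.09 and 10.28 at E16 and fell by 3.26 ± 0.18 (limma adjusted p = 1.1e-09). The time of day of collection is not in the labels. Of 12 immediate-early genes 1 rose and 3 fell, with Jun at -2.30 ± 0.21 and Btg2 at -1.41 ± 0.21.

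The stages between the ends show when the net change was made. Genes that fell 2-fold or more had covered a median of 46.2% of the fall by P2, 57.0% by P6 and 83.7% by P10. Genes that rose 2-fold or more had covered -2.4%, 15.9% and 35.8%. The P2 arrays (SD over probe sets 1.48 to 1.59) and P6 array 4 (1.45) had a lower spread than the E16 arrays (1.66 to 1.8). The part of spread in the shares by P2 and P6 was not tested. The P10 values rest on arrays that disagree, and P10 arrays 1 and 2 are of low spread (SD over probe sets 1.41 and 1.35, among the 5 lowest of 39). By single P10 array the median share of the rise was 16.2%, 8.42%, 83.6% and 43.2%. From P10 arrays 3 and 4 alone, a choice made after seeing the data, it was 66.3%, with 389 of 592 genes past 50% of the way in place of 189, so whether most of the rise lay before or after P10 depends on these arrays. The median share of the fall was 73.0% on arrays 3 and 4, with 873 of 1124 genes past 50% in place of 1024. The 5-stage means come from the same fit, and the end values enter both the share and its denominator, so these are descriptions without a test.

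**Figure D4:**
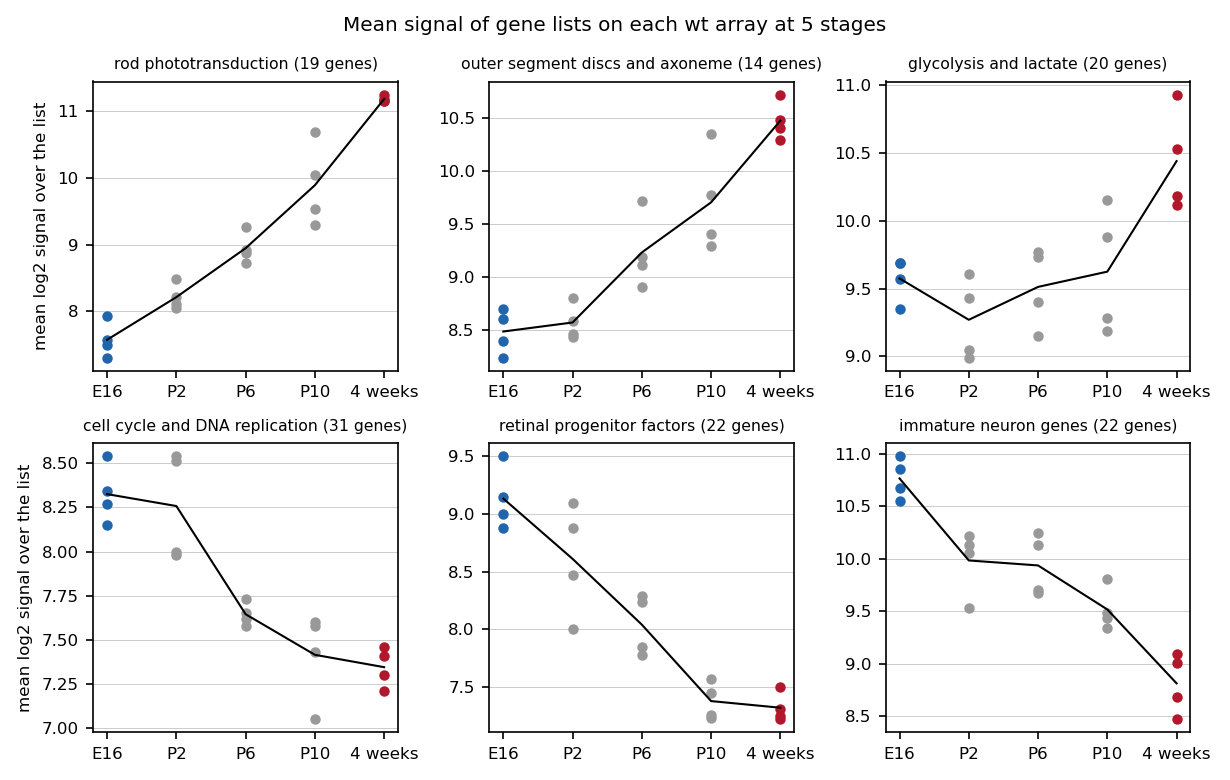
Each point is the mean log2 signal over the measured genes of a list on 1 wt array, at E16, P2, P6, P10 and 4 weeks, with a line through the stage means. Rod phototransduction climbs from the E16 mean of 7.57 to 11.18 at 4 weeks, and progenitor factors are at 7.38 by P10 and 7.32 at 4 weeks.

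Rod genes differed in timing, and each share by P10 is followed by that from P10 arrays 3 and 4 alone. Pde6b had made 39.1% of its rise by P2 and 86.9% (92.5%) by P10, Sag 46.2% and 88.3% (90.2%), and Nrl 47.0% and 87.4% (89.7%). Gnat1 had made 9.15% by P2 and 70.8% (90.2%) by P10. Guca1a, with the largest rise among the genes named here, had made 16.3% (25.7%) by P10, with stage means of 6.75, 6.76 and 7.11 at P2, P6 and P10. Sgk1 had made 6.46% (13.4%) by P10 and Hk2 4.46% (17.5%), so most of their difference lay between P10 and 4 weeks.

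Among the falls, Rrm2 was at 11.55 at P2 and 9.21 at P6 and had made 97.0% of its fall by P10. Atoh7 had made 79.6% by P2 and 98.6% by P6, and Sall3 93.8% by P2. Sox4 and Fabp7 were late: Sox4 was at 12.15, 12.53 and 10.65 at P2, P6 and P10, and Fabp7 at 11.76, 11.36 and 9.19. Tubb2b had made 24.9% (33.3%) by P10.

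A direct comparison of the ends leaves out genes that were high or low only in between. Contrasting the mean of P2, P6 and P10 with the mean of the ends called 4610 genes (25.3%), 3741 of them not called from end to end, but the first count was 1108 without the arrays of low spread, 1198 without E16 array 1 and 10048 without P10 array 3, so only single genes are given. Pax7, a paired-box factor, stood at 7.38, 8.49 and 7.13 at P2, P6 and P10, against 5.16 to 5.66 on the 8 end arrays, and its contrast of 2.26 ± 0.18 was called under every alternative run (limma adjusted p = 8.33e-07). Lrp4, an LDL-receptor relative, and Htra1, a secreted protease, were also higher in between (2.22 ± 0.25 and 1.61 ± 0.17). Psd2 and Slc1a1 followed at 1.40 ± 0.30 and 1.54 ± 0.26. Of the lower genes, Med13l (-2.45), H2aw (-2.38) and Ranbp9 (-2.15) had arrays at P6 and P10 that disagreed, with array 3 of both stages high in each.

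The same ages were measured in Nrl-ko cells, which per the design text turn into cells like S-cones, with 4 arrays at 4 weeks and 3 at E16. The ko array 2 at 4 weeks carried Sox2 at 11.00 and Mki67 at 10.63, against 6.84 to 7.34 and 6.23 to 7.29 on the other 3, and Nrl at 9.05 against 5.60 to 5.77, so ko changes are given without it. The ko E16 array 3 had the lowest spread of the 39 arrays (SD 1.34) and also stood apart, for example with a mean over chromatin genes of 8.68 against 10.13 and 9.98 on the other ko E16 arrays. Without it 618 genes differed between the genotypes, and Gnat1 (5.58), Cnga1 (4.17), Opn1sw (-5.57) and Fabp7 (-4.41) were still called. With all arrays the change in wt differed from that in ko for 558 genes (3.07%), 210 (1.15%) more positive and 348 (1.91%) more negative in wt. Without ko 4-week array 2, 496 genes (2.73%) differed, 190 (1.04%) more positive and 306 (1.68%) more negative in wt. Of the 592 genes that rose 2-fold or more in wt, 551 also had a positive change in ko, and 143 (24.2%) differed from ko in the change. Of the 1124 that fell 2-fold or more, 1021 also had a negative change in ko and 143 (12.7%) differed. Both sets were picked by the wt change, which is also part of the difference from ko. Shares above the 2.73% of all genes are therefore built in, and these counts are descriptions. The share of all genes with the same sign in wt and ko was not computed.

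Rod phototransduction genes parted on this test, which called 8 of 19, all more positive in wt, against 2.73% of all genes in either direction. The 4-week minus E16 value of Gnat1 was 5.79 in wt and 0.07 in ko (difference 5.72 ± 0.47, limma adjusted p = 8.44e-10), with ko arrays at 7.84 to 7.98 at 4 weeks against 7.52 to 8.21 at E16. Cnga1 (4.28 in wt, -0.06 in ko), Slc24a1 (5.8 and 0.67) and Pde6b (5.86 and 1.56) also had a more positive change in wt. Outside that list so did Slc22a29 (5.53 and 0.33), Kcnj14 (4.79 and 0.40), Reep6 (4.13 and 0.45) and Dhrs3 (4.19 and 0.71). Guca1a (6.06 and 6.33), Rcvrn (5.62 and 5.60), Sag (5.32 and 6.57) and Cplx4 (4.95 and 5.13) had no call for a difference, which does not show that they changed alike. Guca1a's difference was -0.27 ± 0.62 and Rcvrn's 0.02 ± 0.58.

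The list of cone genes held 11 of 14 with a call for a difference, against 2.73% of all genes, and 0 of them more positive in wt. The 4-week minus E16 value of Opn1sw was -1.39 in wt and 4.29 in ko (difference -5.69 ± 0.80, limma adjusted p = 1.38e-05), and that of Gnat2 was -1.62 in wt and 2.81 in ko. For Cngb3 the values were -3.41 in wt and 1.64 in ko, and for Arr3 2.95 in wt and 5.60 in ko. Fabp7 fell by 5.15 in wt, whereas ko arrays gave 10.98, 11.28 and 11.41 at 4 weeks against 12.02, 12.23 and 10.37 at E16 (difference -4.83 ± 0.52, limma adjusted p = 1.65e-07). Elovl5 (-2.76 in wt, 1.64 in ko) and Olfm1 (-2.73 in wt, 1.85 in ko) likewise differed from ko. In the progenitor and immature neuron lists 2 of 22 each were called, a share also above the 2.73% of all genes. Rrm2 (-5.70 in wt, -6.24 in ko) and Sox11 (-4.82 in wt, -5.14 in ko) had no call.

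**Figure D5:**
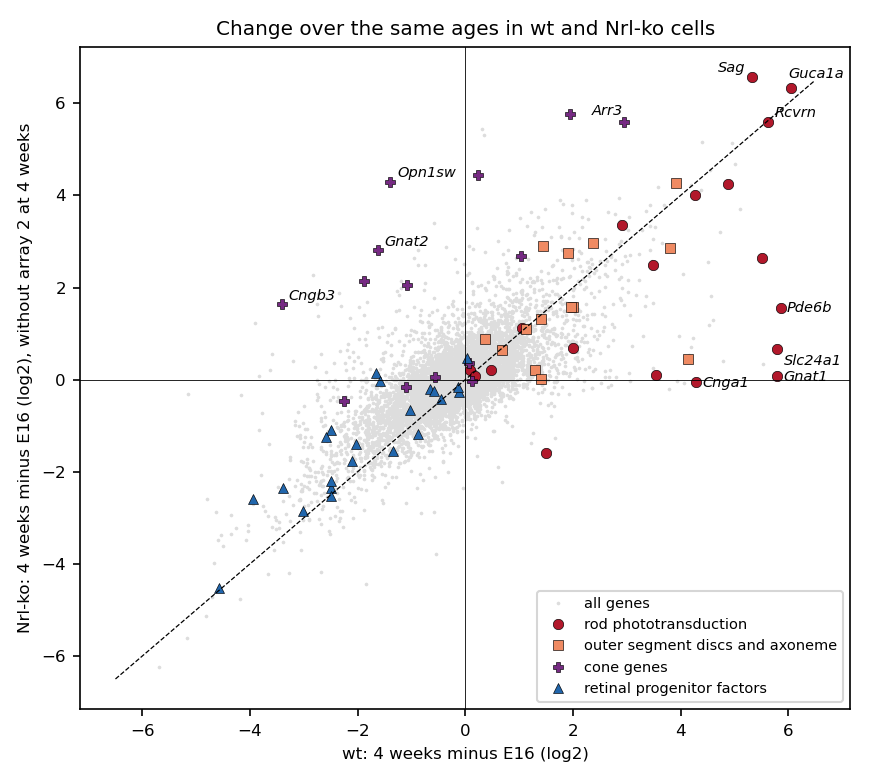
Each point is 1 gene, with its change from E16 to 4 weeks (log2) in wt on the x axis and in Nrl-ko, without 4-week ko array 2, on the y axis, and the dashed line marks equal change. Gnat1, Cnga1 and Slc24a1 lie near 0 in ko and far right in wt, Guca1a and Rcvrn lie near the line, and Opn1sw and Gnat2 lie above it.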

How the data were processed

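Per the submitters' processing notes the authors made the deposited log2 values with RMA, with no version or settings given. The deposited detection calls (other text values, present or absent, by stage) served to mark lower bounds and for a filter, and 1 column in each of the 2 call tables ("Ad") was not assigned to a group. Groups came from the titles. Of 45101 probe sets 34945 named 1 gene, and each of 18193 genes was taken from its probe set with the highest mean over 39 arrays, with no further normalization. limma 3.58.1 under R 4.3.3 fitted 5 stage means to the 20 wt arrays (15 residual, 2.74 prior degrees of freedom). The contrast with ko was fitted to all 39 arrays with 10 group means. A fold is "at least" where the E16 call was absent for a rise, or the 4-week mean was under 7.9 for a fall, the level at which 50% of probe sets were present.

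The members, the 29 gene lists (464 of 499 entries measured) and the rule for named genes were chosen with earlier results of these data known. The rule took the 15 largest rises and falls with arrays that did not overlap, 16 retinal genes, the largest members of each list, and the largest differences from ko and between the ends. Unnamed clones and predicted gene models were passed over in the rankings across all genes. Other list members were named after their values were seen. Promoter windows are the first RefSeq window of a gene, for 14367 genes. Same-numbered arrays at 4 weeks and E16 correlated at 0.54, 0.48, -0.32 and -0.17 after removing group means, so numbers were not taken as pairs. The number of arrays limits the precision.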

Additional observations from a re-analysis of the deposited data

Results flagged for a closer look

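Among 262 groups of 4 arrays looked at for the named genes, 11 held 1 array far from the other 3 by the ratio of the gap to the range (Dixon's limit). Chance flags about 1 in 20 such groups. At 4 weeks these were Prph2 at 8.69 on array 2, Abca4 at 12.38, Sdhb at 9.36 and Eif2s3y at 12.39 on array 1, and Dct at 7.24 on array 4. At E16 they were Sag at 9.46 on array 4, Reep6 at 7.05, Unc119 at 9.55 and Sdha at 10.05 on array 2, Prdm1 at 11.73 on array 3 and Uhrf1 at 9.85 on array 1.

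Over all arrays 3.07% of genes differed in limma's interaction contrast (wt change minus ko change). Of 44 named genes looked at 20 did, but some were named for being among the largest in this contrast, so the count is a description. More positive in wt were Gnat1 (5.76), Slc22a29 (5.36), Slc24a1 (5.22), Kcnj14 (4.48), Cnga1 (4.44), Pde6b (4.22), Rnf207 (3.48), Guca1b (3.22) and Sgk1 (1.41). More negative in wt were Opn1sw (-5.70), Erich6 (-5.01), Fabp7 (-4.99), Rtl8c (-4.98), Cngb3 (-4.90), Wwc1 (-4.62), Olfm1 (-4.51), Gnat2 (-4.28), Cracd (-2.79), Arr3 (-2.58) and Enc1 (-2.13). Without ko array 2 at 4 weeks, Cracd (limma adjusted p = 0.0546) and Enc1 (0.12) were no longer called.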

How the results depend on the processing

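Of 110 named genes called from end to end, 99 stayed called under every alternative run and 0 reversed. The other 11 lost their call at least once, most often Cryba1 (10 times), Sdhb (8), Srrm4 (5), Tfap2a (4) and Flt1 (4). Gnat2 lost it with an adjusted p of up to 0.0655, and Kcne2, Slc12a5, Unc119, Bbs2 and Rbl2 only without 4-week arrays 1 and 4. Of 20 calls for a difference from ko 17 stayed, and Sgk1, Cracd and Enc1 did not. The count of 3076 was 7904 with array weights, whose estimation stopped before it converged, with 3609 up and 4295 down, so that 45.7% in place of 35.7% of calls were rises. In the 8 arrays alone 1660 genes rose and 4353 were called. Without 4-week arrays 1 and 4, chosen after seeing the data, 28.3% of calls were rises. With the replicate block 3067 genes were called, and the numbers did not pair the arrays. Leaving out single arrays gave 2384 to 3102 genes, 877 to 993 up and 1496 to 2180 down. For the stages in between, 4610 became 13823 with array weights, 2741 with the filter on present calls, 1108 without low-spread arrays and 1198 to 10048 without single arrays. For the difference from ko, 558 became 301 in the 15 arrays alone, 661 with the replicate block and 445 to 660 without single arrays. With the mean of all probe sets the median of the rod phototransduction list was 3.54. The cause of these shifts was not tested.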
